A study of Mus musculus with 5 samples.

Results

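Electroconvulsive seizure (ECS) is a brief current through the brain that sets off a generalised seizure, the laboratory counterpart of electroconvulsive therapy. C57Bl/6 mice given 7 shocks were compared with mice given a single shock, both at 2 h after the shock, in the ventromedial hypothalamus (VMH). The comparison rests on 2 arrays, titled VMH_7thECS2h and VMH_1stECS2h, out of 5 in all. The other 3 hold sham-handled mice at 2 h and mice at 6 h after 1 or 7 shocks. Shocks of 25 mA lasted 1 sec, with pulses of 0.5 msec at 100 pulses per sec, and went through ear clips under isoflurane, while sham mice received no current. Each array holds RNA pooled from 2 or 3 animals, taken by laser from stained sections of 7 µm and amplified from 2 ng. The sources used here state neither the age and sex of the mice nor the spacing of the 7 shocks. A second round of arrays on other mice is mentioned in the design and was not used here.

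With a single pooled array for each group there is no replicate error to hold a difference against and nothing was tested, and precision is limited by the number of arrays. Genes are called higher or lower where the arrays differed by 1 or more on the log2 scale (2-fold). Readings quoted below are deposited signals, median-centred per array, on a linear scale with a pseudocount of 1.2 included, and differences are the 7-shock minus the 1-shock array on the log2 scale. The median signal over all probe sets was 20.3 on the 1-shock and 31.6 on the 7-shock array, so that all differences are relative to a shift of 0.64 between them. The ratio of 3' to 5' signal of the Gapdh control was 8.77 on the 1-shock array, 5.88 on the 7-shock array and 6.67 on the sham array. Correlations of log2 signals between the 5 arrays lay between 0.881 and 0.905. One label field places the tissue in the PVN, a neighbouring nucleus, whereas the titles and source names say VMH. Nr5a1, the transcription factor that specifies VMH neurons, read 94.9 in sham, 67.3 after 1 shock and 123 after 7 shocks at 2 h. Slc17a6, the glutamate transporter of these neurons, read 443, 439 and 509.5 on the same arrays. Of 9 PVN and supraoptic markers, 3 were bright enough to be kept (Trh, Oxt and Avp). Their summed readings were 136 in sham, 184 after 1 shock and 234 after 7 at 2 h. The 7-minus-1 differences were 2.51 for Avp, 0.92 for Oxt and -0.13 for Trh. A further 5, Sim1 among them, were below the filter, and Crh had no probe set of its own in the table used.

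Neurons answer a seizure with a wave of immediate early genes, which are switched on by calcium and kinase signals without new protein synthesis. The first group encodes transcription factors such as those of the Fos, Jun and Egr families, and these in turn act with the same signals on effector genes whose products alter synapses, receptors and growth factor supply. Much of this transcription runs through the cAMP response element, which the factor CREB binds, and through the serum response element, which Srf binds. The question of the comparison was how repeated seizures alter this early response. Against sham, the array after 1 shock shows the first response. The array after 7 shocks comes from brains that had already seized, and both share the sham array. No array was taken just before the last of the 7 shocks. A lasting change present before that shock and a changed early response to it therefore cannot be told apart.

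Of 6665 genes kept, 512 (7.68%) were at least 2-fold higher and 473 (7.1%) at least 2-fold lower after 7 shocks than after 1. Of 31 immediate early transcription factors, 15 were bright enough to be kept. Of these, 2 were at least 2-fold lower and 0 at least 2-fold higher, and 11 lay below 0, where 50.1% of all genes lay. Their median was -0.32, with all genes centred close to 0. Of 35 activity-regulated effectors, 23 were kept, with 5 at least 2-fold lower, 0 at least 2-fold higher, 20 below 0 and a median of -0.66. With the mean of a gene's probe sets in place of the one with the highest mean, the median of the immediate early factors was -0.14, and without the filter on dim probe sets it was -0.49. Fewer responding cells in the tissue and less RNA per cell cannot be told apart in such samples.

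The 3 genes whose promoters are printed here are the 2 immediate early factors past 2-fold, Fos and Fosb, and the postsynaptic scaffold Homer1. Homer1 was the one effector past 2-fold whose promoter entry held the motif searched. Of the other effectors past 2-fold, Fbxo33 and Tiparp had an entry without it, and Arc and Rrad had no entry and were not searched. Each sequence is the 250 bases before the RefSeq start in the build GRCm38.p6, 5' to 3' on the gene's strand, and capitals mark the core of a cAMP response element, TGACG or its reverse complement CGTCA. Fos lies on the plus strand with its window at chr12:85473640-85473889, Fosb on the minus strand at chr7:19310046-19310295, and Homer1 on the plus strand at chr13:93303507-93303756.
Fos: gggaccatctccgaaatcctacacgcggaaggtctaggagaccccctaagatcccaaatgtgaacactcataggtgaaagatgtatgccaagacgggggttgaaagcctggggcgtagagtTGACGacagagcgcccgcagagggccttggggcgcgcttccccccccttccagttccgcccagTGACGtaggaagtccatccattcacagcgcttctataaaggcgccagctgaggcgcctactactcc
Fosb: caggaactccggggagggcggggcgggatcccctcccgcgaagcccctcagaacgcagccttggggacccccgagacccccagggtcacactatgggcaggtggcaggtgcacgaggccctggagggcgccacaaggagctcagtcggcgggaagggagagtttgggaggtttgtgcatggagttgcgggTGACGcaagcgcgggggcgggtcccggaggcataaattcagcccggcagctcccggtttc
Homer1: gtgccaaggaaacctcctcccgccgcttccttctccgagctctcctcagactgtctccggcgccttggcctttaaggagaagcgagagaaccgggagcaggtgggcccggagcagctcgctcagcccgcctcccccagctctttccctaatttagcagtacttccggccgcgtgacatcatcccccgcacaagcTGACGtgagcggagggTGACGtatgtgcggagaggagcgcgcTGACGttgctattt

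The core began 129 and 66 bases before the start in Fos, 60 bases before it in Fosb, and 56, 40 and 14 bases before it in this Homer1 promoter. A further Homer1 promoter in the table, at chr13:93307784-93308033, had no such match. Of the 38 kept immediate early and effector genes, 29 had a promoter entry, and 15 of these (51.7%) held the core on either strand. The share was 33.2% over the 5458 kept genes with an entry and 19.8% over all 27025 genes of the table. A gene counted if any of its promoters held the core. The 29 genes had 45 promoters, the 5458 had 7215 and the 27025 had 32851, so the shares are not strictly alike. The full palindrome TGACGTCA, which contains the core, stood in 3 of the 29 (10.3%; Maff, Plk2 and Scg2) and in 3.24% of the kept genes. The median 7-minus-1 difference was -0.47 for the 15 members with the core and -0.66 for the 14 without it. Rgs4, Bdnf and Rheb were among the first group, and Fbxo33, Tiparp, Gadd45b and Jun among the second. A match is a run of letters and not evidence of binding.

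Fos, the founding member of the AP-1 family of activity-induced factors, read 12.6 in sham, 185 after 1 shock and 75.4 after 7 shocks. The 7-shock array was 2.45-fold below the 1-shock array (difference -1.29) and still far above sham. Fosb, a Fos relative whose truncated product builds up with repeated stimulation, read 1.79 in sham, 121 after 1 shock and 33.7 after 7. The difference was -1.84, or 3.57-fold, the widest gap of the immediate early factors. The deposited Fosb signal in sham was 0.3, under the 25th percentile of all values (6.1), so no fold against sham is given. Jun, the dimer partner of Fos proteins, read 77.0 in sham, 432 after 1 shock and 272 after 7 shocks. Its difference was -0.67, and its other probe set gave -0.66. Both Jun probe sets thus kept the 7-shock array between sham and 1 shock without reaching 2-fold.

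Other immediate early factors lay closer together. Egr1, a zinc finger factor of synaptic plasticity, read 261 in sham, 1508 after 1 shock and 1123 after 7 shocks, a difference of -0.43. Egr2, its relative, read 31.2, 172 and 195, a difference of 0.18, while its other probe set gave -0.35. Both Egr genes were thus several times their sham level on either shock array, with little between the shock numbers. Klf10, a factor of the Krüppel family induced by growth signals, read 36.5 in sham and 239 after 7 shocks (0.26), and Maff, a small Maf partner of AP-1, read 20.0, 53.6 and 62.7 (0.23). Jund, a Jun relative that is expressed at rest, read 669.7 in sham, 930.5 after 1 shock and 1223 after 7 (0.39). These 4 genes (Egr2, Klf10, Maff and Jund) were the only kept factors above 0.

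The remaining factors of this list ranged from -0.73 to -0.03. Klf6 gave -0.73 on its brighter probe set and 0.56 on its other one, so its direction is unsettled here. Crem, whose products include a repressor of cAMP-driven transcription, read 38.4 in sham, 51.4 after 1 shock and 33.7 after 7 (-0.61). Srf, the serum response factor, read 211, 449.6 and 350.4 (-0.36). Ier3 gave -0.32, Cebpb -0.14, Ier5 -0.05 and Myc -0.03. Myc, a growth factor-responsive gene, was the exception in its relation to sham, at 72.2 in sham against 37.3 and 36.4 on the shock arrays.

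**Figure D1:**
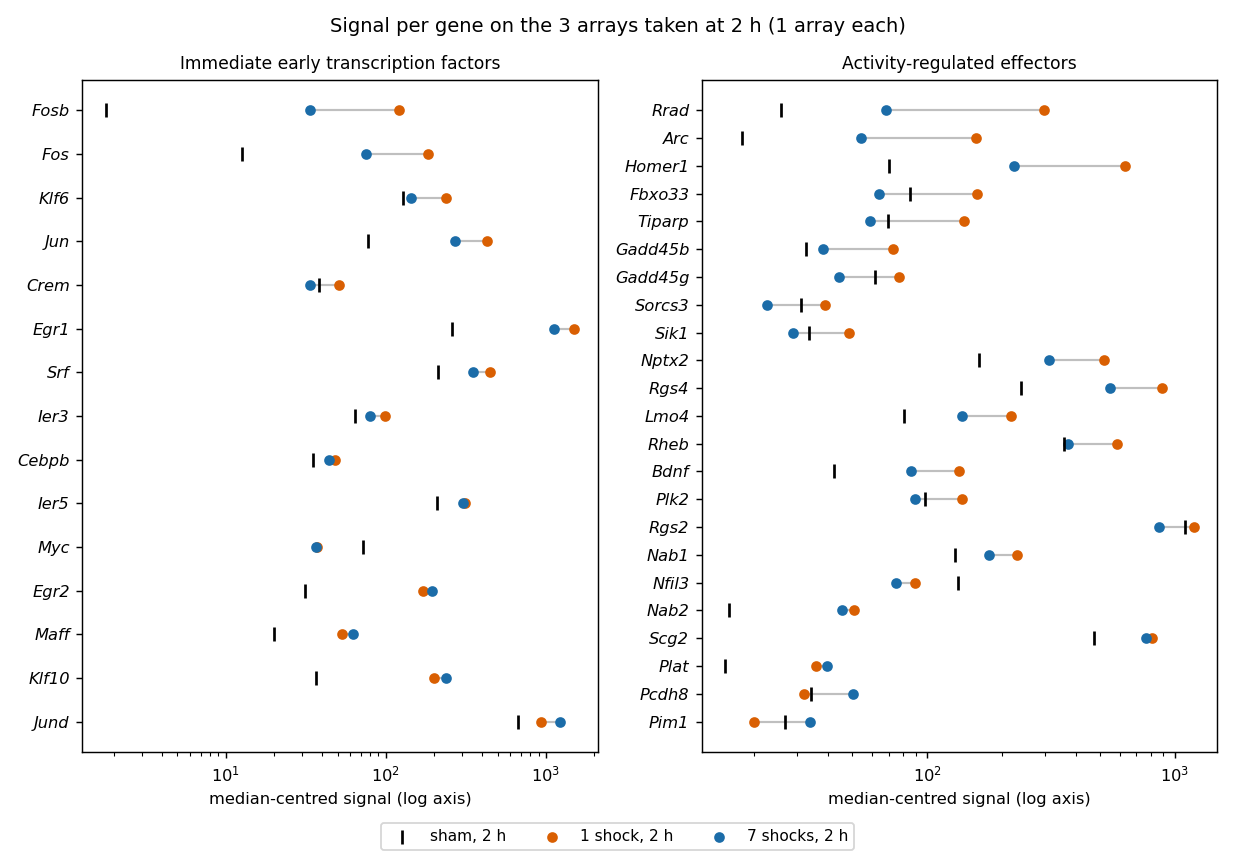
Median-centred signal (x axis, log scale) of the 15 kept immediate early factors and the 23 kept effectors on the 3 arrays at 2 h, 1 array each; black ticks are sham, orange points 1 shock and blue points 7 shocks, with genes ordered by the difference between the shock arrays. Fosb, Fos, Rrad, Arc and Homer1 show blue points well left of the orange ones and right of the sham tick, while Egr2, Maff, Klf10 and Jund have the blue point on the right.

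Another 14 immediate early factors were below the filter on dim probe sets, and 2 had no probe set. Without the filter, 8 of 29 were at least 2-fold lower and 0 at least 2-fold higher, where 14.5% of 12393 genes were lower. Of the effectors without the filter, 5 of 30 were lower, close to that share, and 1 (Trib1, 1.01) was higher. The 6 immediate early factors added were Atf3, Junb, Egr4, Ier2, Fosl1 and Nr4a3. Their deposited signals were low: Atf3 had 22.1 after 1 shock and 0.5 after 7, and Junb 8 and 1.1. Nr4a3, an orphan nuclear receptor, was the brightest of them, at 17 in sham, 51.5 after 1 shock and 37.4 after 7. Egr3 (0.92) and Btg2 (0.51) lay on the other side of 0. Over both lists, 13 of the 21 members under the filter were below 0, where 53.4% of genes lay.

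Among the effectors, the widest gap was that of Rrad, a small GTPase that restrains calcium channels, at 25.8 in sham, 296 after 1 shock and 68.4 after 7 shocks. The difference was -2.11, or 4.32-fold, on its single probe set. Arc, the synaptic scaffold that drives AMPA receptor uptake, read 18.0, 158 and 54.3, a difference of -1.54 (2.90-fold). For both genes the 7-shock array lay between sham and the single shock. Homer1 read 70.6 in sham, 631 after 1 shock and 225 after 7 on the probe set with the highest mean (-1.49, 2.81-fold). Its other probe sets gave -0.61 (157, 387 and 254) and 0.33 (39.0, 41.0 and 51.3). Homer1 makes a short activity-induced form and long constitutive forms, and which probe set reads which form was not determined here. Homer1 therefore passed 2-fold on 1 of its 3 probe sets.

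Fbxo33, an F-box protein of a ubiquitin ligase, was lower on both of its probe sets (-1.31 and -1.06), at 85.7 in sham, 159 after 1 shock and 64.0 after 7 shocks. Tiparp, a mono-ADP-ribosyltransferase, read 69.5, 142 and 58.9 (-1.27), with -0.91 and 0.30 on its other probe sets. On the probe sets used, the 7-shock reading of both genes was under that of sham. The other Tiparp probe sets were above sham after 7 shocks (37.5 in sham and 49.1, and 18.3 and 79.2). Without rescaling of the arrays, all 5 of these effectors but Rrad came inside 2-fold, as did Fos, with the median of all genes then at 0.64.

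The other effectors did not reach 2-fold. Gadd45b and Gadd45g, stress-inducible genes linked to DNA demethylation and repair, gave -0.95 and -0.81. Sik1, a kinase that restrains CREB coactivators, read 33.3 in sham, 48.3 after 1 shock and 28.8 after 7 (-0.75). Bdnf, the activity-regulated neurotrophin, read 42.2, 135 and 86.0 (-0.65). Nptx2, a secreted pentraxin that gathers AMPA receptors, read 161, 517 and 311 (-0.73). Bdnf and Nptx2 thus stood between sham and the single shock, as Fos and Arc did. Rgs4, which ends signalling by Gi and Gq proteins, gave -0.70, -0.71 and -0.93 on its 3 probe sets, with readings of 241, 888 and 548 on the first of them. Lmo4 (-0.66), the mTOR activator Rheb (-0.65), the synaptic kinase Plk2 (-0.63) and Sorcs3 (-0.78) were of like size. Rgs2 (-0.47), Nab1 (-0.37), Nfil3 (-0.26), Nab2 (-0.17) and the granin Scg2 (-0.08) lay nearer 0. Above 0 were the plasminogen activator Plat (0.16), the adhesion protein Pcdh8 (0.65) and the kinase Pim1 (0.75).

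**Figure D2:**
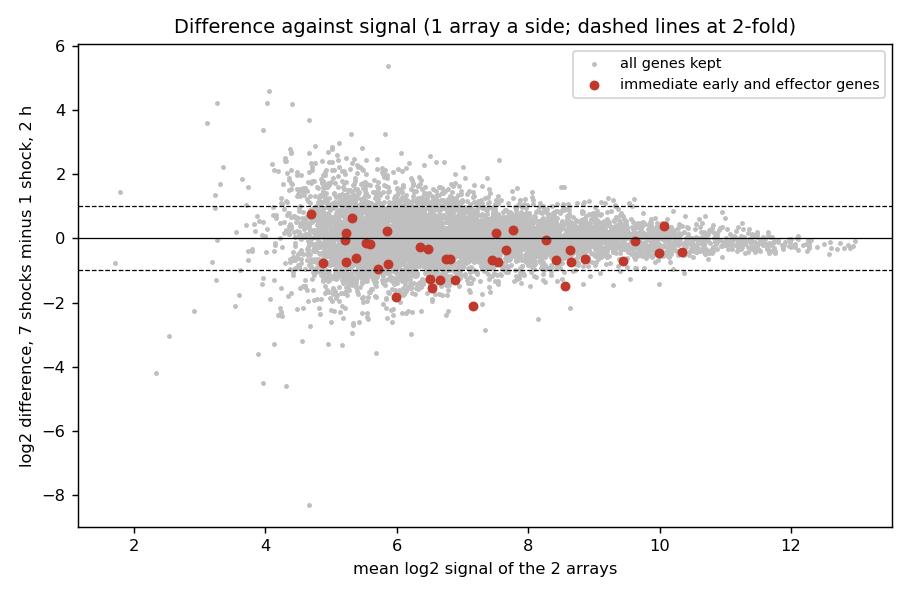
Difference between the 7-shock and 1-shock arrays at 2 h (y axis, log2) against the mean log2 signal of each of 6665 genes (x axis), with the immediate early factors and effectors in red and dashed lines at 2-fold. The scatter narrows to the right, and the 7 red points under the lower line are Fosb, Fos, Rrad, Arc, Homer1, Fbxo33 and Tiparp.

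The width of the scatter depended on brightness. With the kept genes split by their mean log2 signal on the 2 arrays into bins of 25%, 28.4% of the dimmest bin were past 2-fold in either direction, 18.6% of the next, then 9.06%, and in the brightest bin 26 genes were higher and 24 lower of 1666. The 38 kept immediate early and effector genes were spread over these bins as 9, 9, 9 and 11. Those at least 2-fold lower numbered 0, 4, 2 and 1 in these bins, where 13.1%, 9.48%, 4.38% and 1.44% of all genes were lower. No member rested on a deposited signal below the 25th percentile on either array, whereas 24 of the 100 genes furthest from 0 did.

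Set against sham, the shared reference, the median of the immediate early factors was 1.09 on the 1-shock array and 0.87 on the 7-shock array, and the effector list 0.89 and 0.46. Summed over its kept members, the immediate early list read 1868 in sham, 4839 after 1 shock and 4215 after 7 shocks, and the effector list 3338, 6572 and 4201. Both shock arrays were above sham in both lists. Both sums were lower after 7 shocks than after 1.

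The same change of shock number at 6 h uses other arrays, so it shares no array with the comparison at 2 h. The immediate early factors then had their median at 0.13, with 5 genes at least 2-fold higher and 2 lower, where 8.6% and 8.97% of all genes were. The effector list had a median of 0.27, with 7 higher and 1 lower. Of the 38 genes, 21 lay below 0 at 2 h and above 0 at 6 h, as did 22.1% of all genes. Arc read 16.6 at 6 h after 1 shock and 71.4 at 6 h after 7 shocks, a difference of 2.11 against -1.54 at 2 h. Fosb read 10.4 and 25.7 at 6 h (1.30 against -1.84 at 2 h). Bdnf read 72.0 and 204 at 6 h (1.50 against -0.65 at 2 h). Arc, Fosb and Bdnf were thus lower after 7 shocks at 2 h and higher after 7 shocks at 6 h. Rrad (-0.38) and Fbxo33 (-0.43, with 0.85 on its other probe set) lay below 0 at 6 h too. On the 1-shock array at 6 h the Dap control was 12.2 times the median signal, against 4.65 to 6.06 times on the other arrays. Its part in the differences at 6 h was not tested. Homer1 read 11.6 and 267 at 6 h (4.53) on the probe set used, with 0.69 and -0.13 on the others. Fos, at 23.3 and 25.5, and Egr1, at 327 and 307, were close together at 6 h.

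**Figure D3:**
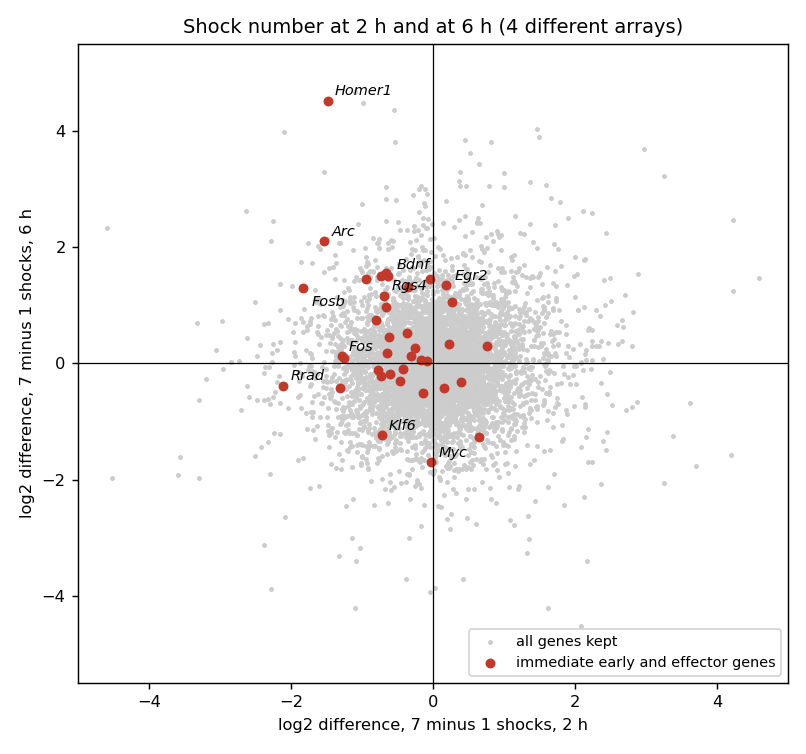
Difference between 7 shocks and 1 shock at 2 h (x axis, log2) against the same difference at 6 h (y axis, log2) for 6665 genes, of which 7 fall outside the axes; the immediate early factors and effectors are in red. Red points gather left of 0, 21 of them in the upper left field, with Arc, Fosb and Homer1 past 2-fold on both axes in opposite directions.

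Glucocorticoids, which are released under stress, act on the brain through a receptor that is itself a transcription factor. Of 18 kept genes responsive to them, 6 were at least 2-fold lower after 7 shocks (33.3%) and 1 was higher. Among all genes 7.1% were lower and 7.68% higher. The list's median was -0.40, with 10 members below 0 and 8 above it. Hsd11b1, the enzyme that regenerates active glucocorticoid, read 24.5 in sham, 142 after 1 shock and 42.7 after 7 (-1.73). Zbtb16, a zinc finger factor strongly induced by glucocorticoid, read 39.7, 171 and 65.9 (-1.37). For both of these the 7-shock array lay between sham and 1 shock. The kinase Pdk4 (-1.16), the EGF receptor inhibitor Errfi1 (-1.13), the sulphotransferase Sult1a1 (-1.32) and the metallothionein Mt2 (-1.03) lay under their own sham readings after 7 shocks. Mt2, for example, read 708 in sham, 965 after 1 shock and 473 after 7.

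Fkbp5, the cochaperone that dampens the glucocorticoid receptor, went the other way. It read 74.5 in sham, 42.3 after 1 shock and 136 after 7 shocks, a difference of 1.68, and at 6 h it was 95.6 after 1 shock and 184 after 7 (0.95). Some other classical targets differed little between the shock numbers: Sgk1 gave -0.19, Per1 0.25 and Tsc22d3 0.03, and the receptor gene Nr3c1 0.08. Of the rest of the list, Dusp1 gave -0.76, Mt1 -0.73 and Cdkn1a -0.60, and Klf9 0.47, Nfkbia 0.27, Ddit4 0.18 and Bcl6 0.16. Sgk1 read 104 in sham against 346 and 302 on the shock arrays. Sgk1, Per1, Tsc22d3 and Nr3c1 were grouped after their values were seen.

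Genes of cAMP and CREB signalling had a median of 0.55 over 23 kept members, with 16 above 0, where 49.9% of all genes lay. At least 2-fold higher were 7 (30.4%) and lower were 2, where 7.68% and 7.1% of all genes were. Phosphodiesterases, which break down cyclic nucleotides, made up 4 of the 7. Pde10a read 18.7 in sham, 16.8 after 1 shock and 118 after 7 (2.81), Pde1b 60.5, 39.1 and 114 (1.55), and Pde1a 98.5, 81.8 and 229.6 (1.49). Pde7b gave 1.36. In each of these 4 genes the 7-shock array was the highest of the arrays at 2 h. The adenylyl cyclase Adcy6, which makes cAMP, gave 1.81, and the calcium-dependent kinases Camk2a and Camkk2 gave 1.21 and 1.06. Camkk2 read 842 in sham, 444 after 1 shock and 924 after 7, so its 1-shock array was the one apart. Camk2a, a main protein of the postsynaptic density, read 544 in sham, 412 after 1 shock and 954 after 7, and at 6 h it differed by 1.63. Adcy8, a calcium-stimulated cyclase, went the opposite way, at 47.5, 97.1 and 9.88 (-3.30). Creb1 itself gave -1.01, with its 3 probe sets between -1.24 and -0.65.

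The synaptic vesicle genes had a median of 0.42 over 22 kept members. At least 2-fold higher were 4 and lower was 1, where 7.68% and 7.1% of all genes were. Syn1, which tethers vesicles to actin, read 332 in sham, 267 after 1 shock and 563 after 7 (1.08), and Bsn, a scaffold of the active zone, read 356, 141 and 336 (1.25). Bsn after 7 shocks was therefore near its sham level, and the 1-shock array was the low one. Vamp1 (1.31) and Atp6v0a1 (1.12) were also past 2-fold, with other probe sets at -0.59 and -0.07. Rims2, which docks vesicles, gave -1.39, with 0.46 on its other probe set. General neuron markers had a median of 0.28, with 14 of 18 above 0 and summed readings of 21011 in sham, 22317 after 1 shock and 23812 after 7. Their part in the differences of neuronal genes was not tested.

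Neuropeptide and granin genes had a median of 0.33, with 19 of 26 above 0. At least 2-fold higher were 2 and lower 0, where 7.68% and 7.1% of all genes were. The arousal peptide gene Hcrt read 67.2 in sham, 26.1 after 1 shock and 68.0 after 7 (1.38). Avp, which encodes vasopressin, read 9.88, 8.22 and 46.9 (2.51), and its deposited signal after 1 shock was 5.1, below the 25th percentile. Both genes mark neurons that lie outside the VMH. Npy, the feeding peptide of the arcuate nucleus, gave -0.97 and Tac2 -0.95. The arcuate marker list had a median of -0.34 over 4 kept members, with 0 past 2-fold and summed readings of 558 after 1 shock and 617 after 7.

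Of the genes that mark the VMH, 8 of 14 were kept, with a median of 0.41 and 6 above 0. Of these 8, 2 were at least 2-fold higher, as were 7.68% of all genes. Cnr1, the cannabinoid receptor, read 112 in sham, 51.4 after 1 shock and 107 after 7 (1.06), and Rprm read 53.7, 52.8 and 106 (1.01). Cnr1 was low on the 1-shock array, whereas Rprm was high on the 7-shock array. Bdnf and Nptx2, which are also on this list, were its 2 members below 0. Among 12 kept genes of energy balance, Cnr1 was the single one past 2-fold, and the list's median was -0.11. Its other members included the leptin signal transducer Stat3 (-0.71) and the serotonin receptor Htr2c (-0.93), named after their values were seen.

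In either direction, 14.8% of all genes were past 2-fold. MAP kinase and G-protein feedback genes had a median of 0.10 over 14 members, with Errfi1 lower and Rgs16, a fast terminator of G-protein signals, higher (46.9 in sham, 29.7 after 1 shock, 74.9 after 7; 1.33). Potassium channels gave 2 higher and 1 lower of 22, namely the channels Kcnh1 (1.72) and Kcnma1 (1.06) and the channel-interacting protein Kcnip3 (-1.57). Kcnip3, also known as the repressor DREAM, read 115 in sham, 84.0 after 1 shock and 28.3 after 7. The calcium channel subunit Cacnb1 gave -1.08, the 1 member past 2-fold among 14 calcium and sodium channels. Gabra2, a GABA receptor subunit, gave 1.41 and was the 1 member past 2-fold among 8 GABA and glycine receptors, as the AMPA receptor subunit Gria4 (1.12) was among 5 glutamate receptors. Trophic factors and receptors had a median of -0.37, with 2 higher and 2 lower of 11. Igf1r gave 1.40 and Igfbp4 1.11, against -1.18 for the FGF receptor Fgfr1 and -1.24 for Ntrk3. Igf1r read 57.5 in sham, 22.2 after 1 shock and 58.6 after 7, so its 1-shock array was the low one. The 5 probe sets of Igfbp4 ranged from 0.27 to 2.68, and the other one of Fgfr1 gave -0.84. Ntrk3, the receptor of neurotrophin-3, had another probe set at 2.16, so its direction is unsettled.

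Microglia markers had 4 of 10 kept members at least 2-fold lower and 0 higher, where 7.1% and 7.68% of all genes were. Their median was -0.23. Aif1, a calcium-binding protein of microglia, read 71.2 in sham, 92.5 after 1 shock and 23.7 after 7 (-1.96), and P2ry12, their purine receptor, read 68.7, 41.0 and 14.5 (-1.50). Tyrobp (-1.04) and Fcer1g (-1.03), adaptors of immune receptors, were lower as well, while the complement gene C1qb gave 0.99 and Csf1r -0.22. The list's summed readings were 2225 in sham, 2129 after 1 shock and 2203 after 7, while its median against sham, the shared array, was 0.06 after 1 shock and -0.53 after 7. The sum is carried by its brighter members. Cd53, a tetraspanin of white blood cells and microglia, is not on this list. It was named because it is among the 10 single-probe-set genes furthest below 0. Its readings were 154 in sham, 152 after 1 shock and 30.4 after 7 (-2.32). Astrocyte markers had a median of -0.19 with 0 of 17 past 2-fold, oligodendrocyte and myelin markers 0.27 with 1 of 9 higher (Ugt8a, 1.47), and endothelial and pericyte markers -0.30 with 1 of 11 higher (Itm2a, 1.08). Itm2a read 140 in sham, 60.8 after 1 shock and 128 after 7, so its 1-shock array was the low one. The part of these glial and vascular markers in other results was not tested. The cortex and amygdala markers had a median of 0.78 over 5 kept members, with 4 above 0 and 1 at least 2-fold higher (Wfs1, 1.24). Their summed readings were 1817 in sham, 1645 after 1 shock and 2604 after 7, and their part in other results was not tested. Of the precursor markers of oligodendrocytes 1 of 4 was higher (Vcan, 1.97) and of the tanycyte and ependymal markers 1 of 3 (Crym, 1.78). Thalamus and GABAergic markers had 0 of 5 and 0 of 4 past 2-fold. The Y-linked genes Uty, Kdm5d and Eif2s3y gave -2.24, -0.71 and -0.31.

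Respiratory chain genes had a median of 0.00 with 0 of 32 past 2-fold, ranging from -0.44 to 0.49. Cytosolic ribosomal proteins had a median of -0.24 with 30 of 35 below 0, and -0.28 at 6 h, where 4 were above 0. Rps25 (-2.29) and Rpl12 (2.21) were the 2 members past 2-fold. Rpl12 read 32.7 in sham, 32.8 after 1 shock and 152 after 7, with no such difference at 6 h (-0.10). Rps25 and Rpl12 lie outside the range of the other members (-0.95 to 0.30). Heat shock genes gave 0 of 18 past 2-fold, led by the cochaperone Dnajb5 at 199.9 in sham, 616 after 1 shock and 339.8 after 7 (-0.86). Of 16 clock genes Nr1d1 (1.34) and Csnk1e (1.37) were higher and Per3 (-1.01) lower. Of 17 sterol synthesis genes Srebf2 (2.66, with 0.07 on its other probe set) and Hsd17b7 (1.01) were higher and Ebp (-1.38) lower. Hsd17b7 read 49.2 in sham, 23.7 after 1 shock and 47.8 after 7, near sham after 7.

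**Figure D4:**
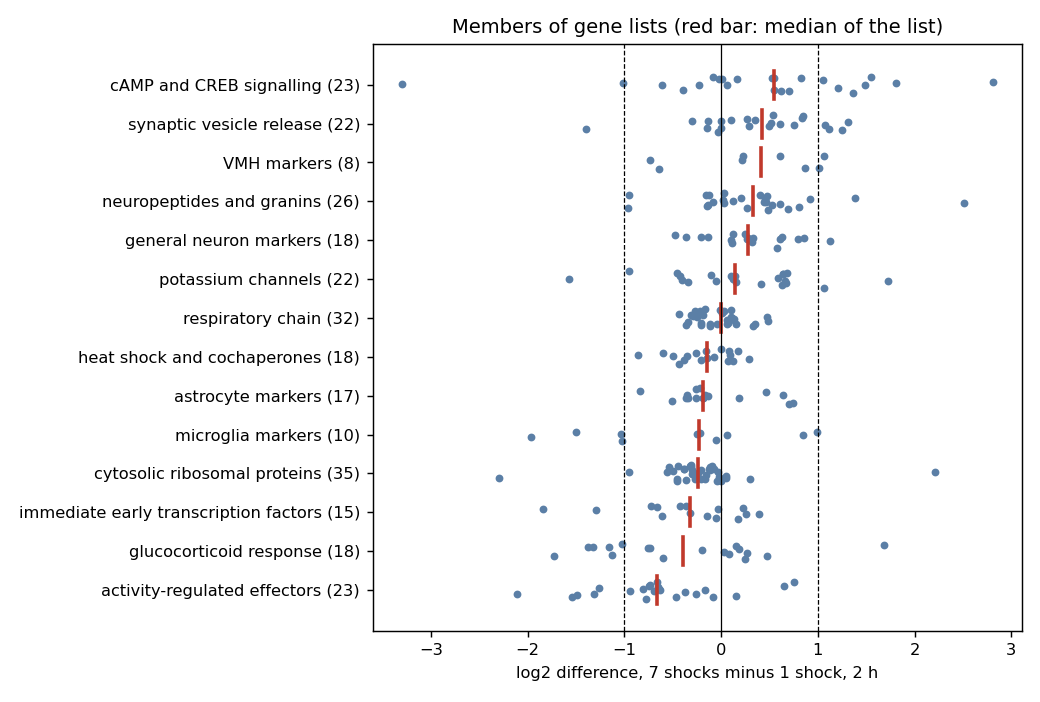
Difference between 7 shocks and 1 shock at 2 h (x axis, log2) for every kept member of 14 gene lists, 1 row a list with the number of members in brackets, a red bar at the median and dashed lines at 2-fold; the height of a point within its row has no meaning. The effectors have a median of -0.66 and the immediate early factors one of -0.32, the cAMP and CREB list lies to the right at 0.55, and the respiratory chain list is the narrow one around 0.00.

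Outside the lists, genes were sought whose several probe sets all passed 2-fold in 1 direction. Of 2454 genes with several kept probe sets, 10 were higher and 14 lower in this way. The shares of 7.68% and 7.1% over all genes rest on 1 probe set a gene. Among the higher ones was Nedd4l, a ubiquitin ligase for sodium channels, at 124 in sham, 64.7 after 1 shock and 217 after 7 (1.72 and 1.75 on its probe sets). Rasgrp1, a calcium- and diacylglycerol-driven activator of Ras, read 128, 75.4 and 212, with 1.06 to 1.59 over 3 probe sets. Kcnma1, the large-conductance calcium-activated potassium channel, read 134, 85.7 and 179, with 1.06 and 2.03. In these 3 genes the 1-shock array was the lowest at 2 h and the 7-shock array the highest. Src, the founding tyrosine kinase, read 3.09 in sham (a dim deposited signal of 1.4), 42.0 after 1 shock and 222 after 7 (1.72 and 2.40). Ptbp1, a repressor of neuronal splicing, read 26.7, 45.5 and 107 (1.24 and 1.64). The DNA repair factor Rad54l, Urm1, Trib2 and Golt1b completed the higher group, together with 1 clone without a gene name. Golt1b read 137 in sham, 62.2 after 1 shock and 139 after 7, and Trib2 42.7, 13.7 and 46.2. In both the 1-shock array was the low one.

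The lower group included Txnrd1, thioredoxin reductase, at 192 in sham, 288 after 1 shock and 86.3 after 7 (-1.74 and -1.15). Cklf, a chemokine-like factor, read 62.2, 64.9 and 12.6, with -4.28 to -1.75 over 3 probe sets. Mob1a, an adaptor of Hippo kinases, read 74.5, 42.8 and 8.21, with -2.38 to -1.17 over 3 probe sets. In all of these the 7-shock array was the lowest at 2 h. Slc25a20, the mitochondrial carnitine carrier, read 40.5, 150.1 and 55.1 (-1.87 and -1.45), and Abhd5, a coactivator of fat breakdown, 35.7, 59.0 and 26.2 (-1.71 and -1.17). Ubl5, Fam91a1, Fuca2, Tril and the dim Ears2 were also in this group.

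Genes with a single kept probe set were taken where their signals were at or above the array median on both arrays. Of these, 187 were at least 2-fold higher and 214 lower. How many genes met this signal rule was not counted, so no share is given. Among all kept genes, 7.68% were higher and 7.1% lower. The median is that of all probe sets, 20.3 after 1 shock and 31.6 after 7. Deposited signals of the genes named were as low as 20.9 after 1 shock (Plxdc1) and 32 after 7 (Trit1). Hadha, a subunit of the mitochondrial enzyme of fatty acid oxidation, led the higher ones at 73.8 in sham, 46.1 after 1 shock and 241 after 7 (2.39). The synaptic scaffold Magi3 gave 2.30, the histone methyltransferase Kmt2c 2.11 and the histone deacetylase Hdac7 1.90. Frmd4b, Slc35a3, Fancg, Zdhhc7 and Plxdc1 were also among the 10 furthest, between 1.92 and 2.16. Fancg, a DNA repair gene, read 309 in sham, 59.1 after 1 shock and 239 after 7, so that its 1-shock array was the one apart. Erdr1 led the lower ones at 365, 434 and 60.2 (-2.85), followed by Rnpc3, a splicing factor of the minor spliceosome, at 75.1, 247 and 47.2 (-2.39). Taf4 (-2.29), Ccdc88a (-2.27), Invs (-2.26), the proteoglycan Gpc1 (-2.26), Trit1 (-2.22) and Brdt (-2.21) came next, with Cd53 and Rrad in the same group.

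Over all genes, 160 (2.4%) were past 2-fold the same way at 2 h and 6 h, 86 of them higher and 74 lower, and 121 (1.82%) opposite ways. Of the 512 genes higher at 2 h, 16.8% were higher and 12.3% lower at 6 h, and of the 473 lower at 2 h, 15.6% were lower and 12.3% higher. Across genes, which are not independent replicates, the 2 differences correlated at r = 0.05 and rho = 0.05. Ctnnd1, the p120 catenin of cell junctions, read 27.0 after 1 shock and 116 after 7 at 2 h, and 27.9 and 171 at 6 h (2.11 and 2.62). Mrtfa, a coactivator of Srf, gave 1.89 and 2.50. Src gave 2.40 at 2 h, and its value at 6 h rests on a deposited signal of 0.3 after 1 shock, with 0.67 on its other probe set. Stac2, which binds calcium channels, gave 3.25 and 3.23 (deposited signal 2.1 at 6 h after 1 shock), and the myosin Myh3 2.97 and 3.69. Adcy8 gave -3.30 at 2 h and -1.98 at 6 h, Mob1a -2.38 and -3.13 (another of its probe sets gave 0.90 at 6 h), Tnfaip2 -2.28 and -3.88, and Arid2, a chromatin remodelling subunit, -1.90 and -1.67. Tgm2, a transglutaminase, gave -2.10 and -2.64, with a probe set at 0.98 at 2 h. Ccdc77 was lower at both times, while Acad11, Trabd, Tarbp2, Brat1 and Rpia rested on a dim signal on 1 of the arrays at 2 h.

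Agreement between probe sets of a gene was limited. Of 2454 genes with several kept probe sets, the differences of the 2 brightest correlated at r = 0.16 and rho = 0.19 across genes. Of 230 genes past 2-fold on the brightest, 60.4% had the same sign on the next and 13.9% were past 2-fold on it in the same direction. Rgs4 and Fbxo33 kept 1 sign on all their probe sets, whereas Homer1, Tiparp, Egr2 and Klf6 did not.

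**Figure D5:**
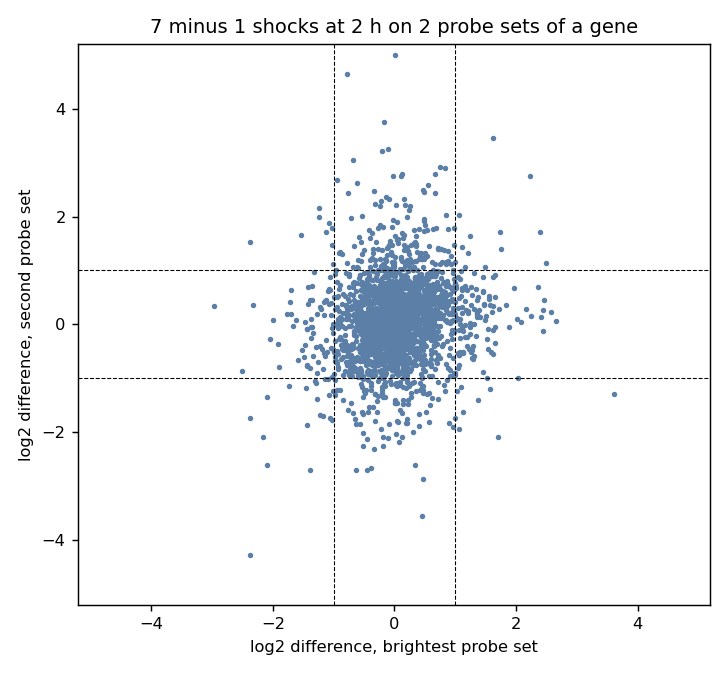
Difference between 7 shocks and 1 shock at 2 h (log2) on the brightest probe set of a gene (x axis) against that on its next brightest (y axis), for 2454 genes of which 1 lies outside the axes, with dashed lines at 2-fold. The cloud is round rather than drawn out along the diagonal, with a correlation of 0.16 across genes.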

How the data were processed

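The authors deposited MAS5 signals, per the submitters' processing notes, as 1 linear intensity for each probe set. No settings or detection calls of that software were used here. Of 22690 probe sets, 64 controls, 691 with several gene symbols and 1555 with none were left out, and 20351 of the remaining 20380 matched a RefSeq gene. Values were put on the log2 scale with a pseudocount of 1.2 (their 10th percentile). The upper 50% of probe sets by mean signal over the 5 arrays were kept (10401, for 6665 genes). Their median was set equal on every array, and each gene was read from the kept probe set of highest mean. That mean includes the 2 arrays compared, so a gene could pass the filter through the array where it was high. Fosb and Ebp leaned in this way on the 1-shock array at 2 h, and Pde10a on the 7-shock array. A gene was called dim where a deposited signal was below 6.1, the 25th percentile. With 1 array a group no p-value was computed, and the calls rest on size (2-fold). Named genes were the kept immediate early and effector members, and list members past 2-fold or else the 2 furthest. Also named were genes with all of several probe sets past 2-fold, and the 8 in each direction past 2-fold the same way at both times. The 10 furthest single-probe-set genes in each direction were added, if at or above the median of all probe sets on both arrays. Clones were only counted. The members, the 35 gene lists and the rule were chosen with earlier results of these data known. Promoters came from RefSeq (GRCm38.p6). The calculation was tested on simulated data with known fold changes and little noise. That test checks the arithmetic and does not measure how reliable the calls on these arrays are. Python 3.11.15, numpy 2.4.6, pandas 2.3.3, statsmodels 0.14.6 and matplotlib 3.10.9 were used.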

Additional observations from a re-analysis of the deposited data

Results flagged for a closer look

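For 3 of the immediate early and effector genes the difference between 7 shocks and 1 shock passed 2-fold in opposite directions at the 2 collection times, which use separate arrays. Fosb was lower after 7 shocks by -1.84 on the log2 scale at 2 h and higher by 1.30 at 6 h. Arc was at -1.54 at 2 h and 2.11 at 6 h. Homer1 was at -1.49 at 2 h and 4.53 at 6 h on the probe set used, where its reading at 6 h after 1 shock was 11.6 against 70.6 in sham. With 1 array in each group, the difference between the times was not tested. Over all genes, 58 (0.87%) were at least 2-fold lower at 2 h and at least 2-fold higher at 6 h.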

How the results depend on the processing

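There were 10 alternative settings. Leaving the arrays without rescaling moved the median of all genes to 0.64. Then 1827 genes were higher and 117 lower (94.0% of calls higher against 52.0%), 276 passed the same way at both times, the immediate early median was 0.32, the effector median -0.023 and the inflammation median 0.11. This setting adds the same shift to every gene. Without the filter on dim probe sets 1470 genes were higher, 1798 lower (45.0% of calls higher) and 730 passed the same way at both times, with an immediate early median of -0.49, and in the top 25% by mean 122, 125 and 25. Without rescaling, 27 of the named genes came inside 2-fold and 9 passed it. With the mean of a gene's probe sets Ntrk3 was 0.21 and Elavl3 -0.71, Homer1 -0.59 and Tiparp -0.62, with an immediate early median of -0.14, and without the _s_at and _x_at probe sets Tgm2 was 0.97. Choosing the probe set by mean log2, an alternative added after the data were seen, gave Homer1 -0.61 and Srebf2 0.07. The cause of these changes was not tested. Under quantile and loess scaling, pseudocounts of 0 and 6.1, and a floor of 6.1 on both arrays, the calls numbered 407 to 542 higher and 402 to 498 lower, and the effector median was -0.70 to -0.63. No paired analysis was possible because each group has 1 array, and for the same reason no array could be left out.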
